A study of Mus musculus with 56 samples.

Results

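Under daytime-restricted feeding (DRF) mice have food only in the light phase, so the fasted part of the day falls in the dark, when mice are active. The comparison described here set kidneys taken in the dark without food, 20 h after the lights came on (zeitgeber time 20, ZT20), against kidneys taken in the light with food, 8 h after (ZT8). Its libraries were chosen by regimen and time point alone, as the 4 DRF ZT20 and the 4 DRF ZT8 libraries, which makes 8 of 56 in the series. All mice were C57BL/6J females aged 9 weeks without a transgene, kept in cycles of 12 h light and 12 h dark, with 7 days of restricted feeding before the kidneys were taken. The reference regimen, nighttime-restricted feeding (NRF), had food only in the dark, so its ZT20 was dark and fed and its ZT8 light and fasted, with 4 mice each. Poly(A) RNA of the kidney was sequenced from both ends, and every group of 4 is a set of separately labelled mice, pooled in no library.

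The comparison bears on which kidney transcripts follow the light cycle and which follow the meal when the 2 are put in conflict. The circadian clock is a feedback loop of transcription. BMAL1 (gene Arntl) pairs with CLOCK or NPAS2 and activates the genes of their repressors, the PER and CRY proteins, and of the REV-ERB receptors Nr1d1 and Nr1d2, which in turn repress Arntl. Output factors such as DBP and TEF pass the rhythm on to other genes. Fasting acts by other routes: fatty acids released from fat activate the nuclear receptor PPARA, which raises genes of fatty acid oxidation, and low insulin lowers SREBP-driven genes of lipid synthesis. In the kidney these programmes meet in the proximal tubule, which lives largely on fatty acid oxidation, while the distal nephron and collecting duct set the final salt, acid and water balance.

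Levels are given as TPM (transcript abundance per length, scaled to the same total in each library) on a linear scale, rebuilt from the deposited table, with 22.64 to 24.29 M reads per library behind them (M for mega). Differences are ZT20 minus ZT8 on the log2(TPM + 1) scale, which understates changes of genes near 0, with their standard errors (SE). A gene is called when its limma adjusted p is under 0.05 in a fit of all 14 groups. Replicates of DRF ZT8 correlated at 0.992 to 0.995 across genes, which are not independent replicates, and those of DRF ZT20 at 0.97 to 0.99.

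DRF ZT20 replicates 3 and 4 stood apart from the other DRF libraries, at 29.1 and 44.3 on the first principal component of the 16 libraries at ZT8 and ZT20, against 4.8 and -9.3 for replicates 1 and 2 and -17.4 to -5.3 for DRF ZT8. Markers of urothelium and of collecting duct and inner medulla moved with this split, and adipose markers did not. A list of 8 urothelium genes, written after these libraries had been seen, summed to 464 and 795 TPM in DRF ZT20 replicates 3 and 4, to 49.8 and 7.69 TPM in replicates 1 and 2, and to 12.9 to 56.3 TPM in DRF ZT8. Among the NRF libraries replicate 1 of ZT8 was like them, at 21.3 on that component and 425 TPM in that sum. NRF ZT20 replicate 2 came next, at 12.1 and 213 TPM. The defining uroplakin Upk3a was at 33.1 and 61.2 TPM in DRF ZT20 replicates 3 and 4 and at 4.39 and 0 TPM in replicates 1 and 2. Adipose markers summed to 280, 4.23, 32.4 and 720 TPM in DRF ZT20 replicates 1 to 4 and to 0.893 to 1.97 TPM in DRF ZT8. Under NRF they summed to 211, 601, 2.77 and 1.5 TPM in ZT20 replicates 1 to 4 and to 1.12 to 46.8 TPM at ZT8. Collecting duct and inner medulla markers summed to 1724 to 1916 TPM in DRF ZT8, to 863 and 621 TPM in DRF ZT20 replicates 1 and 2, and to 1577 and 1660 TPM in replicates 3 and 4. Under NRF they summed to 1936, 850, 962 and 902 TPM in ZT8 replicates 1 to 4 and to 783 to 1223 TPM at ZT20. Between DRF ZT8 and ZT20, none of the 8 urothelium and 6 adipose genes tested was called, and of 7 collecting duct genes 1 rose and 3 fell. Over all genes 7.99% rose and 7.1% fell. With the spread between these libraries, no call does not mean equal levels. Proximal tubule markers, the defining genes of the bulk of the cortex, stood at 8001 to 8781 TPM at ZT8 and 7592 to 9041 TPM at ZT20, and thick limb and distal tubule markers at 6210 to 9173 and 6428 to 8087 TPM, so the tissue carried its labelled markers. Adrenal markers stayed between 5.49 and 7.56 TPM and pancreas markers at or below 0.483 TPM. In bulk tissue, fewer cells of a type and less RNA per cell cannot be told apart. Results are therefore also given without DRF ZT20 replicates 3 and 4, an alternative chosen after the data were seen, and the part of these markers in a result was not tested. Replicate 1, with an adipose sum of 280 TPM, stays in that fit.

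**Figure D1:**
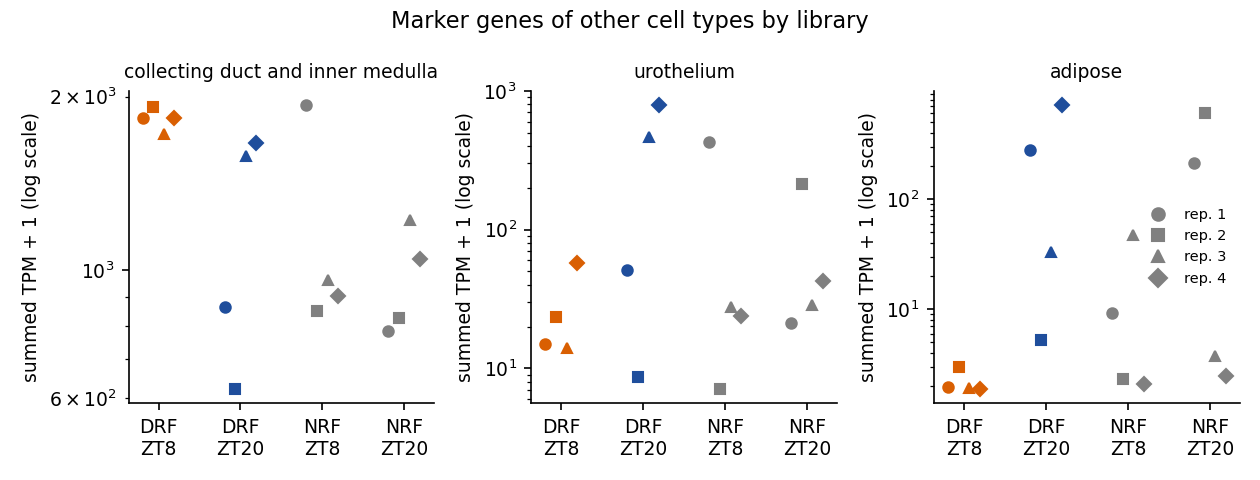
Summed TPM + 1 (log axis) of the marker genes of collecting duct and inner medulla, urothelium and adipose tissue in each of the 16 libraries at ZT8 and ZT20, with 1 point per library and the replicate number as the symbol. The urothelium sum was 464 and 795 TPM in DRF ZT20 replicates 3 and 4 and at most 56.3 TPM in DRF ZT8, and within DRF the collecting duct sum was lowest in ZT20 replicates 1 and 2.

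Between fed light and fasted dark, 1084 of 13570 genes rose (7.99%) and 964 fell (7.1%). Changes were mostly small: 371 of the 2048 called genes moved by at least 1.5-fold, 229 up and 142 down, and 106 by at least 2-fold, 67 up and 39 down. The 4 libraries at ZT20 all lay above the 4 at ZT8 for 10.4% of all genes and all below for 10%. Without DRF ZT20 replicates 3 and 4 the same fit called 984 genes, 359 up and 625 down, of which 858 were among the 2048. Without replicate 3 alone it called 1358. The split between directions depended on the scale, since 52.9% of calls were higher on the TPM scale, 46.5% after median-of-ratios rescaling, 44.8% with the effective library sizes behind the deposited values and 37.3% on the deposited values themselves. It also depended on single libraries. The genes called higher numbered 614 (42% of calls) without DRF ZT20 replicate 4, 649 (47.8%) without replicate 3 and 704 (49%) without DRF ZT8 replicate 2, and 1226 (62%) and 1427 (61%) without DRF ZT20 replicates 1 and 2.

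To ask what the same clock times did when the meal was at night, the NRF pair was tested in the same fit. There 16% of all genes were higher and 18.1% lower at ZT20 than at ZT8. Among the 1084 genes that rose under DRF, 177 also rose under NRF (16.3%, near the 16% of all genes), 307 fell (28.3%, against 18.1%) and 600 were not called (55.4%). Among the 964 genes that fell under DRF, 257 also fell under NRF (26.7%, against 18.1%), 243 rose (25.2%, against 16%) and 464 were not called (48.1%). The 2 pairs share no library, but a gene called under DRF and not under NRF is not thereby shown to differ between them. The difference itself, DRF minus NRF, was positive in 17.1% of all genes and negative in 13.1%. Averaged over both regimens, where the meal is balanced between the 2 times, 11.2% of all genes were higher and 11.9% lower at ZT20. Without NRF ZT8 replicate 1, 451 of the genes called under DRF moved the same way under NRF, 492 the opposite way and 1150 were not called, against 434, 550 and 1064 with it.

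**Figure D2:**
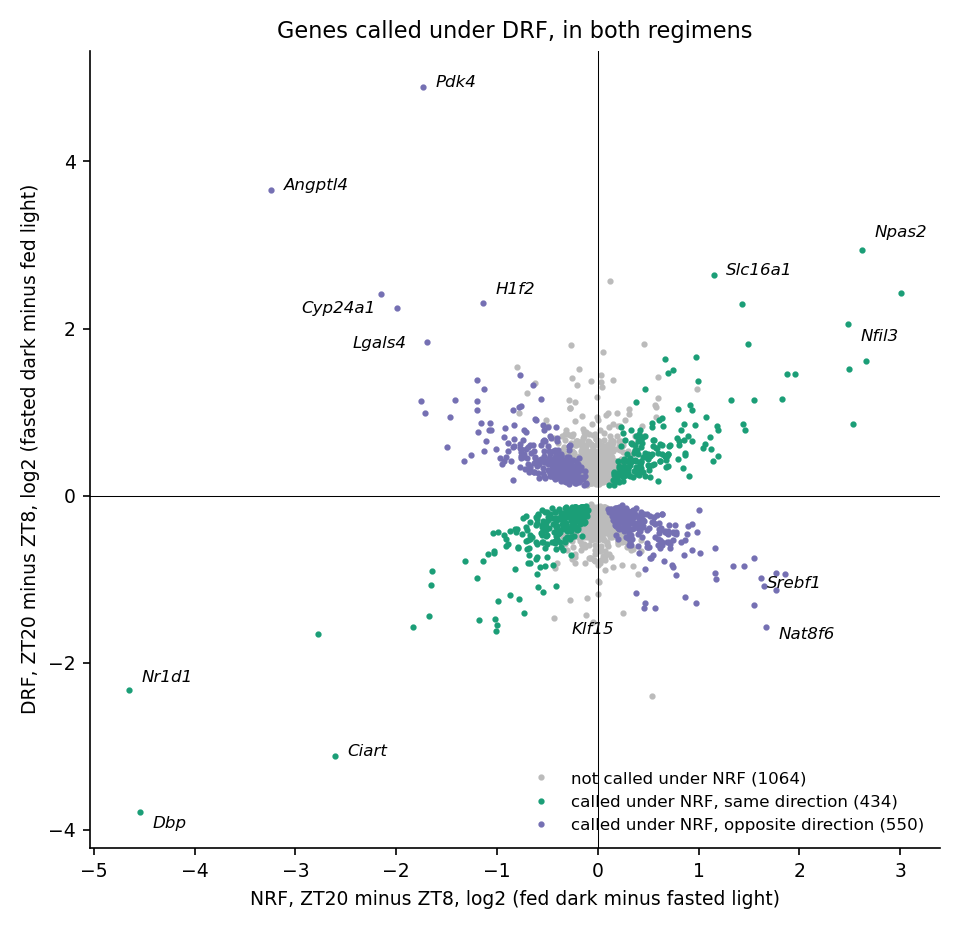
Difference of ZT20 minus ZT8 on the log2(TPM + 1) scale under DRF (vertical axis) against the same difference under NRF (horizontal axis) for the 2048 genes called under DRF, with 1 point per gene and the colour for the call under NRF. Dbp, Ciart and Nr1d1 lie low and Nfil3 and Npas2 high under both regimens, while Pdk4 and Angptl4 are high under DRF and low under NRF, and 550 genes in all were called in opposite directions.

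Fuel-switch genes made the largest rises. Pdk4, the kinase that shuts pyruvate out of the mitochondrial oxidation of glucose, was at 6.9, 8.88, 12.7 and 18.2 TPM in the DRF ZT8 libraries and at 493, 289, 430 and 258 TPM in the DRF ZT20 libraries. Angptl4, a secreted inhibitor of lipoprotein lipase and a PPARA target, was at 4.37, 7.19, 8.37 and 9.79 TPM at ZT8 and at 168, 76.5, 126 and 67.2 TPM at ZT20. Every fasted-dark library lay far above every fed-light library for both, with differences of 4.89 ± 0.33 (SE, adjusted p = 2.28e-15) for Pdk4 and 3.66 ± 0.42 (adjusted p = 1.31e-08) for Angptl4. Under NRF both moved the other way, Pdk4 from 109 ± 33.6 (SD, n = 4) at ZT8 to 33.2 ± 14.1 TPM at ZT20 and Angptl4 from 114 ± 39.4 to 13 ± 9.37 TPM, and the regimens differed by 6.62 and 6.90 on the log2 scale. The fasted levels of Pdk4, 367 ± 112 TPM in the dark under DRF and 109 ± 33.6 TPM in the light under NRF, were not tested against each other. Across the 7 DRF time points, Pdk4 means went from 11.7 TPM at ZT8 through 99.2 TPM at ZT16 to 367 TPM at ZT20 and back to 88.2 TPM at ZT24.

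Slc16a1 (MCT1), a carrier of lactate, pyruvate and ketone bodies, stood at 16.7, 16.7, 19.4 and 14 TPM at ZT8 and at 132, 93.3, 108 and 105 TPM at ZT20, without overlap. Its difference was 2.64 ± 0.16 under DRF and 1.15 ± 0.16 under NRF, so the rise had the same direction in both regimens and was larger under DRF (test of the regimen difference, adjusted p = 2.67e-06). Ypel2 behaved alike, with 10.7, 9.08, 11.8 and 11.9 TPM at ZT8 and 58.8, 49.8, 57.5 and 62.9 TPM at ZT20, a difference of 2.29 ± 0.12 under DRF and 1.43 ± 0.12 under NRF. Hmox1, the haem-degrading enzyme, also rose under both, by 1.82 ± 0.34 and 1.49 ± 0.34, and its 4 ZT8 libraries lay between 32.4 and 37.7 TPM while those at ZT20 spread from 90.4 to 206 TPM. The rise of Hmox1 did not differ between regimens by the test (0.33, adjusted p = 0.638), and its highest DRF mean was at ZT16 with 326 TPM.

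Several of the largest rises were reversed under NRF. Lgals4, a galactose-binding lectin, was at 11, 13.2, 11.6 and 13.7 TPM at ZT8 and at 55.6, 35.4, 52.2 and 46.2 TPM at ZT20, and it rose by 1.84 ± 0.17 under DRF but fell by 1.69 under NRF. H1f2, a linker histone gene, rose by 2.31 ± 0.25 from 20.4, 22.9, 32.7 and 31.4 TPM to 151, 121, 167 and 108 TPM and fell by 1.14 under NRF. Cyp24a1, the mitochondrial enzyme that inactivates vitamin D hormone, was at 106, 63.1, 54.7 and 39.5 TPM at ZT8 and at 699, 176, 277 and 219 TPM at ZT20. A single library, DRF ZT20 replicate 1, thus held most of the spread of Cyp24a1, whose difference was 2.24 ± 0.57 (adjusted p = 0.00497), or 2.49 (adjusted p = 0.0228) without DRF ZT20 replicates 3 and 4. On the deposited values as they are, Cyp24a1 was not called (adjusted p = 0.0501).

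Among the remaining rises, Slc34a2, a sodium-phosphate cotransporter, stood at 3.35, 3.1, 3.74 and 5.59 TPM at ZT8 and at 14.7, 11.6, 28.6 and 10.3 TPM at ZT20 (difference of 1.72 ± 0.25), with 0.05 ± 0.25 under NRF. Socs2, an inhibitor of growth hormone signalling, stood at 13.7, 7.81, 14.6 and 17 TPM at ZT8 and at 35.9, 69.9, 61.9 and 32.2 TPM at ZT20 (1.81 ± 0.41). Gm14434, a predicted gene whose reads were recorded in hundredths because they are shared with other genes, ranged from 1.02 to 19.6 TPM at ZT8 and from 24.2 to 27.3 TPM at ZT20. Its change of 1.80 ± 0.41 is therefore uncertain between gene copies. All 12 leading rises were also called without DRF ZT20 replicates 3 and 4.

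**Figure D3:**
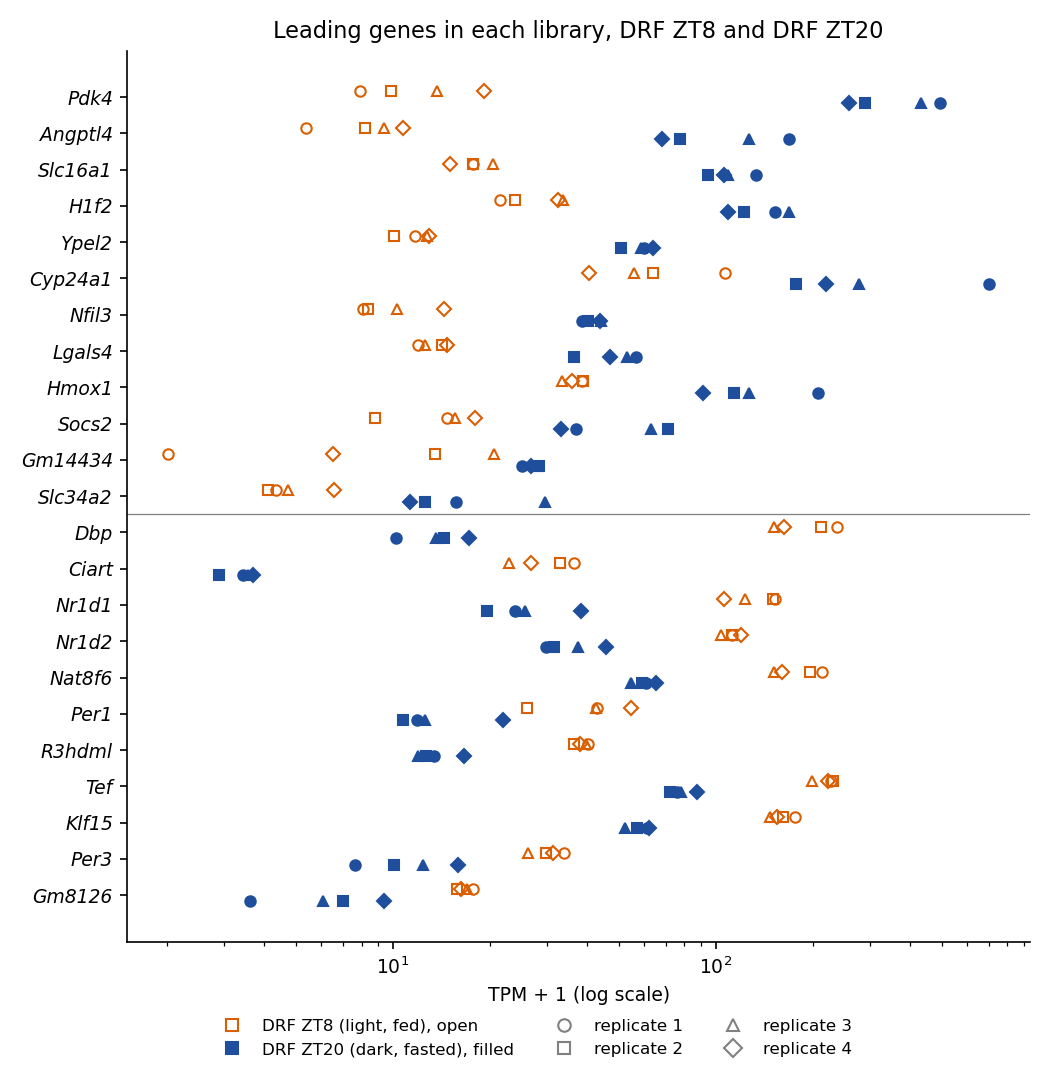
TPM + 1 (log axis) of the 12 called genes with the largest rises (top) and 11 of the 12 with the largest falls (bottom) in each DRF library, with open symbols for ZT8, filled symbols for ZT20 and the replicate number as the shape. By the rule that chose them the groups of 4 do not overlap, and the ZT20 libraries of Pdk4 lie at 258 TPM or more against at most 18.2 TPM at ZT8.

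Clock outputs and clock repressors made up most of the largest falls. Dbp, a PAR bZIP factor that relays clock time to metabolic genes, was at 237, 210, 150 and 162 TPM in the DRF ZT8 libraries and at 9.22, 13.4, 12.6 and 16.2 TPM in the DRF ZT20 libraries. Its difference was -3.78 ± 0.32 under DRF and -4.54 ± 0.32 under NRF, and the regimens did not differ by the test (0.75, adjusted p = 0.218). Ciart, a repressor of CLOCK-BMAL1, was at 35.4, 32, 21.9 and 25.8 TPM at ZT8 and at 2.44, 1.9, 2.56 and 2.7 TPM at ZT20 (difference of -3.11 ± 0.20, and -2.61 ± 0.20 under NRF). In both genes the fed-light libraries lay about an order of magnitude above the fasted-dark ones. Tef, a relative of Dbp, lay between 198 and 230 TPM at ZT8 and between 71.2 and 86.6 TPM at ZT20 (-1.49 ± 0.12).

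Promoters of 4 of these and related genes are shown because their letters hold elements through which clock factors are known to act. The stretches are the 250 bases before the RefSeq start (GRCm38.p6), read 5′ to 3′ on the gene's strand, and capitals mark the E-box CACGTG, the binding letters of CLOCK-BMAL1, or the D-box, searched on both strands as TTANGTAA and bound by DBP, TEF and NFIL3. Ciart and Klf15 fell, and each holds E-boxes, while Per3 fell and holds D-boxes, and Cry1 rose and holds an E-box:
Ciart (chr3:95882229-95882478, minus strand): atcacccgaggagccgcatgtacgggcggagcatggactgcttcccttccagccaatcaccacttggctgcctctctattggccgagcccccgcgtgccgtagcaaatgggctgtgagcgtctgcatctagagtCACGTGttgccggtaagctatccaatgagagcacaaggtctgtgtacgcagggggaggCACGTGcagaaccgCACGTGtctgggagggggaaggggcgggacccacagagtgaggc
Klf15 (chr6:90462326-90462575, plus strand): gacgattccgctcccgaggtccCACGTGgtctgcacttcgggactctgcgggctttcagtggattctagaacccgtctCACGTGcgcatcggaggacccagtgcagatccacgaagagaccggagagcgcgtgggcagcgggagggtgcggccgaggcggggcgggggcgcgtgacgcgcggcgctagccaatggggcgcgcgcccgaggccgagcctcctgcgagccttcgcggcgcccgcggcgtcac
Per3 (chr4:151044666-151044915, minus strand): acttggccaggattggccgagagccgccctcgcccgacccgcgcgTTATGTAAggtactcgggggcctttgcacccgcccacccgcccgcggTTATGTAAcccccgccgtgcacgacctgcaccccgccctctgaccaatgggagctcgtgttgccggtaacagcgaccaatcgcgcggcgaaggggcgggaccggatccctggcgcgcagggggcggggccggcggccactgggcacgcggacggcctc
Cry1 (chr10:85185055-85185304, minus strand): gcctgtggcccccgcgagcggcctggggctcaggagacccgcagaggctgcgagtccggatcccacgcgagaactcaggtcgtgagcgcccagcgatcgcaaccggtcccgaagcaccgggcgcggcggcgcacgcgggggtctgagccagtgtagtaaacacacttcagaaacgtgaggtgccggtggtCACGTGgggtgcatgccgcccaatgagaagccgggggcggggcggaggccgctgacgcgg
Over all 32851 promoter windows of this length 6.02% hold the E-box and 2.06% the D-box. Counting a gene if any of its windows matched, 9.6% of 10796 tested genes held an E-box, 4 of the 11 leading falls with a window did, and 1 of 8 leading rises did. A D-box was found in Per3 among the 11 falls and in none of the 8 rises, against 1.71% of tested genes, and the ROR element TAGGTCA stood in Nfil3 among the 8 rises, against 2.17%. These matches describe letters only, and Cry1 shows that an E-box in this window went with a high level at ZT20 as well.

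The REV-ERB receptors kept their direction but not their size. Nr1d1 (REV-ERBα) was at 151, 149, 122 and 105 TPM at ZT8 and at 22.9, 18.6, 24.6 and 37.2 TPM at ZT20, and fell by 2.33 under DRF and by 4.65 under NRF. Nr1d2 (REV-ERBβ) was at 111, 111, 103 and 119 TPM at ZT8 and at 28.7, 30.6, 36.5 and 44.7 TPM at ZT20, and fell by 1.65 under DRF and by 2.78 under NRF. Both falls were smaller under DRF, with regimen differences of 2.31 (adjusted p = 2.60e-06) and 1.13 (adjusted p = 5.32e-05). For Nr1d1 both ends moved, since the NRF means were 230 ± 16.6 TPM at ZT8 and 8.33 ± 1.75 TPM at ZT20 against 132 ± 22.3 and 25.8 ± 7.98 TPM under DRF. Part of the reads of Nr1d1 and of Dbp were recorded in hundredths, as for genes that share reads. Of the opposing ROR activators, Rora, at 19.8 to 21.3 TPM and 20.8 to 26.7 TPM, was not called (0.23 ± 0.10, adjusted p = 0.116) in the fit of all libraries. It was called without DRF ZT20 replicate 2 (0.30, adjusted p = 0.0431) and in the 4-group fit with the replicate block (0.23, adjusted p = 0.0445).

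All 3 activators rose. Arntl (BMAL1) was at 1.5, 1.74, 3.6 and 2.52 TPM at ZT8 and at 18.5, 14.2, 18.4 and 15 TPM at ZT20, and Npas2 was at 1.24, 0.817, 1.39 and 0.894 TPM at ZT8 and at 16.8, 10.1, 17.2 and 17.1 TPM at ZT20. These groups were far apart, with differences of 2.42 ± 0.18 and 2.94 ± 0.18 under DRF and 3.01 ± 0.18 and 2.62 ± 0.18 under NRF, and neither differed between regimens by the test (adjusted p = 0.0782 and 0.344). Clock rose by 0.36 ± 0.11 (adjusted p = 0.0182), a call that was lost without DRF ZT8 replicate 2 (adjusted p = 0.0702) and without DRF ZT20 replicate 3 (0.0788) or 4 (0.0738). Nfil3, the repressor that competes with DBP for its sites, rose from 7.08, 7.4, 9.32 and 13.4 TPM to 37.5, 39.1, 43 and 42.7 TPM (2.05 ± 0.19, and 2.48 ± 0.19 under NRF).

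Repressors of the loop did not move as a block, where 7.1% of all genes fell and 7.99% rose. Of 8 members, 5 fell, Cry1 rose, and Cry2 and Bhlhe40 were not called (-0.10 ± 0.13 and -0.10 ± 0.16). Per1 stood at 41.9, 25.1, 41.5 and 53.5 TPM at ZT8 and at 10.9, 9.78, 11.6 and 21 TPM at ZT20 (-1.55 ± 0.29), and Per3 at 32.8, 28.9, 25.3 and 30.4 TPM and at 6.61, 9.11, 11.4 and 14.9 TPM (-1.44 ± 0.21). Their falls did not differ between regimens by the test (adjusted p = 0.329 and 0.594). Per2 was called in opposite directions in the 2 regimens. It was at 41.5, 37.2, 22.5 and 32.9 TPM at ZT8 and at 10.9, 9.9, 15.2 and 13.9 TPM at ZT20 under DRF (-1.34 ± 0.18) and rose by 0.46 ± 0.18 under NRF, a regimen difference of -1.80 (adjusted p = 4.39e-07). Cry1 rose from 7.34, 8.25, 6.61 and 11.3 TPM to 27.4, 26.1, 26.1 and 22 TPM, by 1.51 ± 0.21 under DRF and 2.49 ± 0.21 under NRF. Bhlhe41 (DEC2) fell by 0.78 under DRF and by 1.32 under NRF, and Hlf, the third PAR bZIP factor, was not called (-0.23 ± 0.11, adjusted p = 0.164). Without DRF ZT20 replicates 3 and 4, 2 of 3 activators, 6 of 8 repressors and 3 of 4 genes of both smaller lists were still called in these directions, the lost call being that of Clock (0.23, adjusted p = 0.351).

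**Figure D4:**
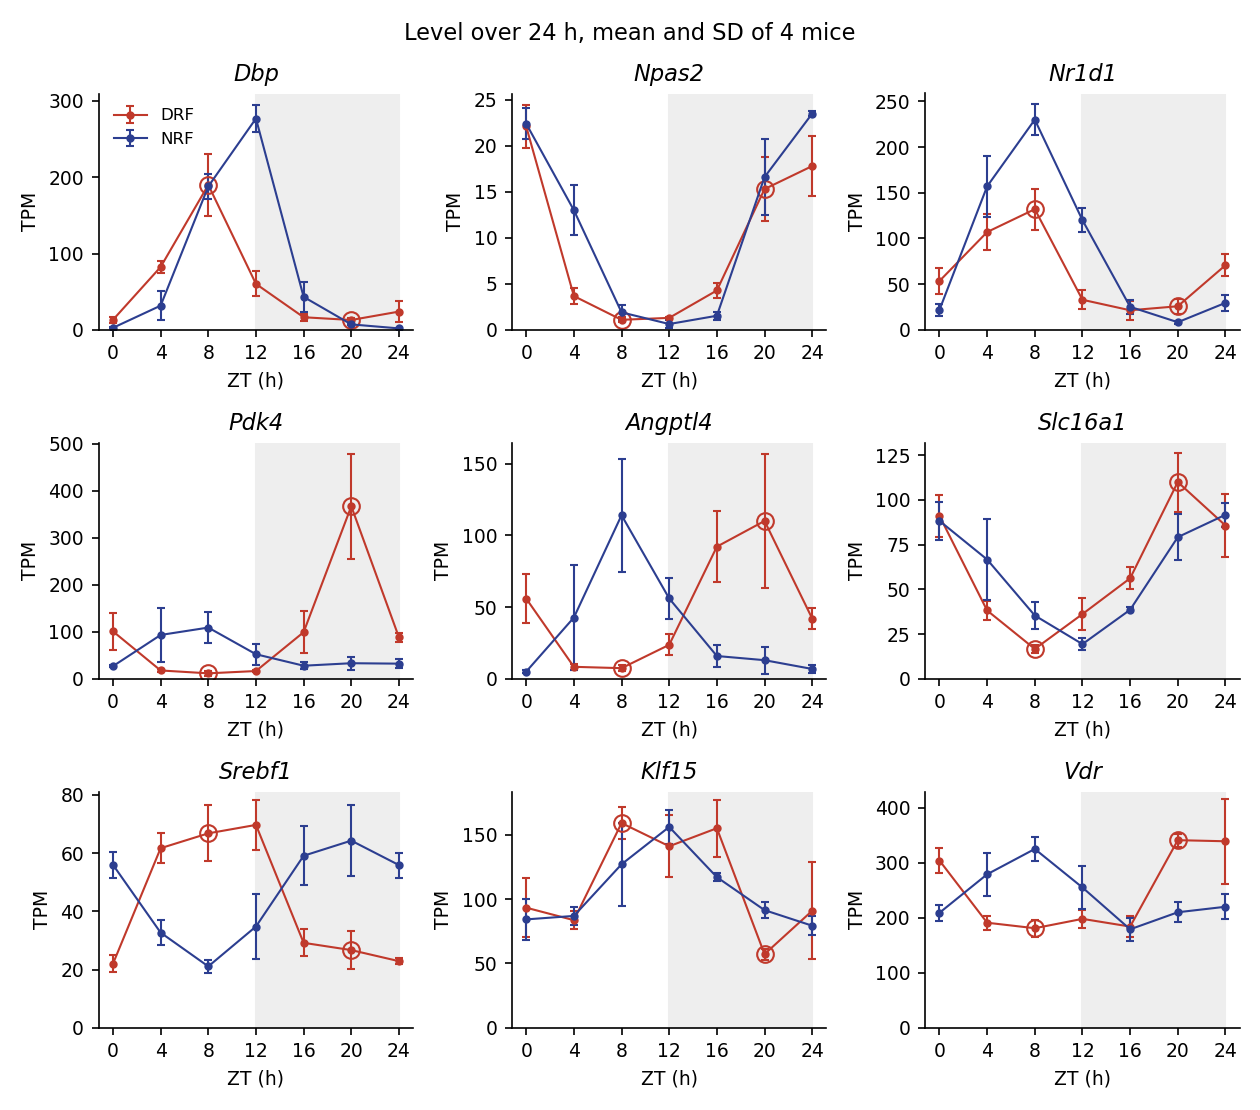
Mean and SD (bars, 4 mice each) of the level in TPM of 9 genes against ZT under DRF (red) and NRF (blue), with the dark phase shaded and the DRF ZT8 and ZT20 groups circled. The DRF curves of Dbp and Npas2 take the same side as NRF at both times, those of Pdk4, Angptl4, Srebf1 and Vdr take the opposite side, and Pdk4 reaches 367 TPM at DRF ZT20.

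Other leading falls were of several kinds. Klf15, a glucocorticoid-responsive regulator of amino acid use, was at 175, 160, 146 and 154 TPM at ZT8 and at 60.2, 56.2, 51.5 and 60.9 TPM at ZT20 (-1.46 ± 0.18), against -0.43 ± 0.18 under NRF (adjusted p = 0.0538, regimen difference of -1.02). R3hdml was at 39.1, 35.5, 38.5 and 37 TPM at ZT8 and at 12.4, 11.7, 11 and 15.6 TPM at ZT20 (-1.51 ± 0.22), with -0.05 ± 0.22 under NRF. Nat8f6, of the Nat8 family of acetyltransferases, was at 212, 195, 150 and 159 TPM at ZT8 and at 59.7, 58, 53.7 and 64.4 TPM at ZT20, and fell by 1.57 under DRF but rose by 1.67 ± 0.24 under NRF. Its reads, like those of Gm8126 (-1.43 ± 0.29), were recorded in hundredths, so both are uncertain between gene copies. All 12 leading falls were also called without DRF ZT20 replicates 3 and 4.

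Genes of fatty acid oxidation and other PPARA targets formed the largest group of risers among the lists. Of 38 tested members, 14 rose and 1 fell, against 7.99% and 7.1% of all genes, with a median difference of 0.21 against 0.03 over all genes. Besides Pdk4 and Angptl4, the risers included the lipid droplet coat proteins Plin5 (4.93, 4.08, 4.86 and 4.24 TPM at ZT8 and 15.2, 13.1, 12.8 and 12.5 TPM at ZT20) and Plin2 (0.78 ± 0.13), and the acyl-CoA thioesterases Acot2 (1.28 ± 0.13) and Acot1 (1.07 ± 0.17). Reads of Acot2 were recorded in hundredths, as for genes that share reads. The carnitine shuttle moved at 3 steps: Cpt1a, which makes acylcarnitine, rose by 0.66 ± 0.09, Slc25a20, which carries it inward, by 1.06 ± 0.08, and Cpt2, which returns acyl-CoA, by 0.76 ± 0.08. Peroxisomal Pex11a (0.90 ± 0.08) and Ehhadh (0.73 ± 0.17) rose as well, whereas the peroxisomal thiolase Acaa1a fell by 0.33.

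Most enzymes of the mitochondrial β-oxidation spiral were not called. Acadl (0.11 ± 0.07), Acadvl (0.05 ± 0.05), Hadh (0.01 ± 0.07) and Etfb (-0.00 ± 0.09) lay near 0, and so did Ppara itself (0.11 ± 0.14). Under NRF 29 of the 38 members fell and none rose, against 18.1% and 16% of all genes, with a median of -0.35. The regimens differed in 27 members. Without DRF ZT20 replicates 3 and 4, 11 members rose, none fell and the median was 0.20. In DRF ZT20 replicates 1 to 4 the adipose sum was 280, 4.23, 32.4 and 720 TPM. Pdk4 stood there at 493, 289, 430 and 258 TPM and Angptl4 at 168, 76.5, 126 and 67.2 TPM. The part of fat in these levels was not tested.

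Cholesterol genes leaned the other way. Of 24 tested members of synthesis and uptake, 8 fell and 2 rose, against 7.1% lower and 7.99% higher over all genes, with a median of -0.17 against 0.03. Insig1, the sterol sensor of the endoplasmic reticulum, was at 82.4, 95.9, 85.7 and 72.2 TPM at ZT8 and at 55.6, 43.4, 50.1 and 54.2 TPM at ZT20 (-0.71 ± 0.17). Mvd, of the mevalonate pathway, was at 89.1, 90.4, 84.9 and 80.3 TPM at ZT8 and at 63.1, 74.3, 49.5 and 50.2 TPM at ZT20 (-0.55 ± 0.10). The groups did not overlap for either gene, and Insig1 and Mvd rose under NRF, by 0.55 and 0.83, where 13 members of the list rose and 1 fell, against 16% and 18.1% of all genes. Without DRF ZT20 replicates 3 and 4, 4 members fell and 2 rose, with a median of -0.22, and Mvd lost its call (adjusted p = 0.0712).

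Srebf1, the transcription factor of lipid synthesis, was at 73.8, 76.5, 58.6 and 58.4 TPM at ZT8 and at 21.9, 21.7, 27.8 and 35.3 TPM at ZT20. It fell by 1.31 under DRF and rose by 1.55 ± 0.15 under NRF, with no overlap between the DRF groups. Scd2, a fatty acid desaturase, followed it, from 182, 171, 150 and 147 TPM to 65.8, 69.7, 103 and 137 TPM (-0.84 ± 0.18), and rose by 1.45 ± 0.18 under NRF. The wider list of fatty acid synthesis did not go along. Of 17 members 3 were lower and 1 higher, against 7.1% and 7.99% of all genes, with a median of 0.27. Fasn (1.11 ± 0.66) and Thrsp (1.78 ± 1.13), both abundant in fat, were not called. Elovl6 rose by 0.72 ± 0.23, to 65.9, 55.7, 74.9 and 108 TPM in DRF ZT20 replicates 1 to 4. The adipose sums of these libraries were 280, 4.23, 32.4 and 720 TPM, and the part of fat in the rise was not tested. The call of Elovl6 was lost in 5 of the 8 fits that left out 1 DRF library, with an adjusted p of 0.158 without DRF ZT20 replicate 4. Acss2 fell by 0.26, a call lost without DRF ZT20 replicate 3 (adjusted p = 0.0848).

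Insulin- and FOXO-responsive genes were split. Txnip, a glucose-responsive inhibitor of thioredoxin, rose by 0.99 ± 0.20 from 274, 345, 428 and 411 TPM to 831, 601, 818 and 631 TPM, and fell by 1.71 under NRF. Igfbp1, a secreted binder of insulin-like growth factors that rises with fasting in the liver, was lower at DRF ZT20 than at ZT8 by 1.07. It went from 75.8, 74.6, 98.2 and 79.3 TPM to 34, 47, 37.1 and 36.3 TPM, and fell also under NRF by 1.65. At DRF ZT16, also dark and fasted, its mean was 85.4 TPM, against 29.3 TPM at ZT4 and 19 TPM at ZT12. In all 2 of 18 members rose and 3 fell, against 7.99% and 7.1% of all genes, with a median of 0.11. Under NRF 10 members fell, against 18.1% of all genes. Fbxo32, a ubiquitin ligase subunit, rose by 0.51 ± 0.17 but lost its call in 4 of 8 fits without 1 library, with an adjusted p of up to 0.153 without DRF ZT20 replicate 4. In gluconeogenesis and glucose transport only Slc5a1 (SGLT1) of 13 members was called, falling by 0.30 (adjusted p = 0.0117, lost without DRF ZT8 replicate 4 at 0.0574 and without DRF ZT20 replicate 3 at 0.0503).

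Among 13 glucocorticoid targets 1 rose and 2 fell, against 7.99% and 7.1% of all genes, with a median of -0.07. Zbtb16 was at 20.1, 25.8, 5.36 and 7.06 TPM at ZT8 and at 4.32, 2.25, 2.65 and 4.96 TPM at ZT20 (-1.57 ± 0.46). Its ZT8 libraries fell into a high and a low pair, and its call was lost in 3 of 8 fits without 1 library, with an adjusted p of up to 0.102 without DRF ZT8 replicate 2. Klf9 fell by 0.29 and lost its call in 5 of those 8 fits (up to an adjusted p of 0.101, without DRF ZT8 replicate 1). Cdkn1a, the cell cycle inhibitor p21, rose by 0.94 ± 0.27 and was not called without DRF ZT20 replicate 4 (adjusted p = 0.0523).

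In mineral handling, Vdr, the vitamin D receptor, was at 200, 172, 165 and 187 TPM at ZT8 and at 349, 353, 330 and 331 TPM at ZT20. The groups were tight and far apart (0.92 ± 0.11, adjusted p = 2.00e-08), and Vdr fell by 0.62 under NRF. With Cyp24a1 and the calcium pump Atp2b1 (0.32 ± 0.08, not called without DRF ZT20 replicates 3 and 4 at an adjusted p of 0.0945 or on the deposited values at 0.0515), 3 of 19 members of the phosphate, calcium, magnesium and vitamin D list rose, and Cldn16, a tight junction protein of the thick limb that passes calcium and magnesium, fell by 0.53. The abundant phosphate carrier Slc34a1 averaged 3683 and 3577 TPM (-0.04 ± 0.15), and Cyp27b1, which makes the active hormone, was not called (-0.51 ± 0.43). Over all genes 7.99% rose and 7.1% fell, and the median of the list was 0.12.

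Of 21 genes of sodium and potassium transport, 2 fell and none rose, against 7.1% and 7.99% of all genes, with a median of -0.10. Slc9a3 (NHE3), the main sodium-hydrogen exchanger of the proximal tubule, was at 107, 119, 98.8 and 122 TPM at ZT8 and at 80.4, 64.3, 69.6 and 76.3 TPM at ZT20 (-0.62 ± 0.10, and -0.79 ± 0.10 under NRF). Scnn1g, a subunit of the epithelial sodium channel, was at 106, 86, 83.4 and 79.1 TPM and at 57, 73.3, 60.9 and 60.6 TPM (-0.49 ± 0.11). Its partners Scnn1a (-0.13 ± 0.08) and Scnn1b (-0.21 ± 0.11) were not called, nor were the targets of loop and thiazide diuretics, Slc12a1 (-0.09 ± 0.30) and Slc12a3 (-0.08 ± 0.14).

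Of the water channels of the collecting duct, Aqp2 and Aqp3 fell and Aqp4 was not called. Aqp3 was at 382, 429, 349 and 382 TPM at ZT8 and at 196, 170, 247 and 248 TPM at ZT20 (-0.85 ± 0.14), and fell also under NRF, by 0.57. Aqp2, the vasopressin-regulated channel, was at 1129, 1068, 959 and 990 TPM at ZT8 and at 285, 215, 739 and 780 TPM at ZT20 (-1.25 ± 0.39, adjusted p = 0.0215). The 4 libraries at ZT20 were thus in a low and a high pair, which were also the low and high pairs of the collecting duct and inner medulla sum, of which Aqp2 and Aqp3 are members. The call of Aqp2 was lost in 4 of 8 fits without 1 library, with an adjusted p of up to 0.104 without DRF ZT20 replicate 2, and without replicates 3 and 4 its difference was -2.06 (adjusted p = 0.00147). Under NRF Aqp2 was not called (-0.28 ± 0.39, adjusted p = 0.622), and the regimens did not differ by the test (-0.98, adjusted p = 0.177). Aqp4 was at 53.6, 90.2, 91.3 and 93.1 TPM at ZT8 and at 43.1, 30.2, 151 and 157 TPM at ZT20 (-0.10 ± 0.53, adjusted p = 0.922), so its groups overlapped. In the same list Slc14a2, the urea carrier of the inner medulla, was at 30.6, 107, 115 and 172 TPM at ZT8 and at 123, 10, 169 and 232 TPM at ZT20 and was not called. Slc6a6, the taurine carrier, fell by 0.50. In all 3 of 12 members fell and none rose, against 7.1% and 7.99% of all genes. The median was -0.12 with all libraries and -0.68 without DRF ZT20 replicates 3 and 4.

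Other transport lists held few calls, where 7.99% of all genes rose and 7.1% fell. None of 13 genes of acid-base transport and ammonia production was called, with a median of -0.00, and the most abundant, Car2 and Glud1, differed by -0.06 ± 0.10 and -0.11 ± 0.13. Slc6a19 (B0AT1), a carrier of neutral amino acids, was the 1 of 9 proximal amino acid transporters called, from 430, 316, 395 and 301 TPM to 206, 189, 166 and 161 TPM (-0.98 ± 0.25, not called without DRF ZT20 replicates 3 and 4, adjusted p = 0.0898). Of 18 organic anion, cation and drug transporters, 2 fell, Abcc2 by 0.48 and Slc22a4 by 0.37, and each lost its call in 5 of 8 fits without 1 library, Abcc2 with an adjusted p of up to 0.14 without DRF ZT8 replicate 1 and Slc22a4 with up to 0.0987 without DRF ZT20 replicate 1.

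Protein folding genes were called under DRF about as often as all genes, of which 7.99% rose and 7.1% fell, and more of them rose under NRF, against 16% of all genes. Of 21 endoplasmic reticulum chaperones and genes of the unfolded protein response, 15 rose and 2 fell under NRF, with a median of 0.79, and 1 rose and 1 fell under DRF, with a median of 0.11. Hspa5 (BiP), the main chaperone of that compartment, differed by 0.22 ± 0.15 under DRF and 1.31 under NRF, and Sdf2l1 by 0.12 ± 0.19 and 2.61. The regimens differed in 15 of the 21. Herpud1, which takes part in degradation at that membrane, was at 491, 518, 424 and 486 TPM at ZT8 and at 340, 278, 273 and 295 TPM at ZT20, and fell by 0.69 under DRF and by 1.03 under NRF. Pdia3 rose by 0.23 ± 0.07 on the TPM scale but was not called after median-of-ratios rescaling (adjusted p = 0.0912), on the deposited values (0.297), or in 4 of 8 fits without 1 library (up to 0.115, without DRF ZT8 replicate 1).

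Of 21 heat shock genes, 10 rose and none fell under NRF, against 16% and 18.1% of all genes. Under DRF 3 fell and none rose, against 7.1% and 7.99% of all genes, with a median of 0.02. The regimens differed in 9. Hsp90ab1 (-0.03 ± 0.07) and Hspd1 (0.02 ± 0.07) lay near 0 under DRF. The 3 that fell were the co-chaperones Chordc1 (by 0.36), Dnaja1 (by 0.28) and Fkbp4 (by 0.17), of which Dnaja1 lost its call in 6 of 8 fits without 1 library (up to an adjusted p of 0.103, without DRF ZT20 replicate 1) and Fkbp4 in 5 (up to 0.119, without DRF ZT20 replicate 4) and after median-of-ratios rescaling (0.0593). Of the cold-inducible RNA-binding proteins, whose mRNAs rise as body temperature drops, Cirbp rose from 52.3, 53.2, 47.6 and 43.2 TPM to 75.1, 77.3, 67.9 and 74.7 TPM (0.58 ± 0.14), and Rbm3 was not called (-0.04 ± 0.10). Both fell under NRF, and both differed between regimens (adjusted p = 2.78e-11 and 2.98e-08).

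Growth and stress lists changed little, where 7.99% of all genes rose and 7.1% fell. Of 27 ribosome biogenesis genes 5 rose, Rrs1, Gnl3, Ubtf, Wdr43 and Ftsj3, and 2 fell, Rrp9 and Fbl, with a median of 0.03, and without DRF ZT20 replicates 3 and 4 1 rose and 2 fell. Of these Rrs1 (0.30 ± 0.09) lost its call without DRF ZT8 replicate 3 (adjusted p = 0.0596) and without DRF ZT20 replicate 3 (adjusted p = 0.0697). Of 20 cytosolic aminoacyl-tRNA synthetases 3 fell by small amounts, Mars1 by 0.24, Farsa by 0.18 and Sars by 0.15, and Farsa lost its call in 4 of 8 fits without 1 library (up to an adjusted p of 0.124, without DRF ZT20 replicate 3). Under NRF 9 of these synthetases rose and 3 fell, against 16% and 18.1% of all genes. Of 18 ATF4 and amino acid response genes only Cth was called, which fell by 0.30 and was not called without DRF ZT20 replicate 4 (adjusted p = 0.0584).

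Of 14 genes of the NRF2 and glutathione list, 4 rose and none fell, against 7.99% and 7.1% of all genes, with a median of 0.06. Beside Hmox1 these were Txnrd1 (0.36 ± 0.07), Nfe2l2, which encodes NRF2 (0.35 ± 0.08), and Srxn1 (0.30 ± 0.07), and without DRF ZT20 replicates 3 and 4 Nfe2l2 was not called (0.18, adjusted p = 0.26). Srxn1 was not called on the deposited values (adjusted p = 0.114). Of 13 immediate early genes, Myc rose from 8.06, 8.55, 9.25 and 9.97 TPM to 21, 15.2, 20.5 and 21.5 TPM (1.04 ± 0.14) and Zfp36 fell by 0.52, a call lost without DRF ZT8 replicate 3 (adjusted p = 0.0713) or DRF ZT20 replicate 2 (adjusted p = 0.0523). None of 15 interferon response genes was called under DRF, with a median of -0.17, and 12 fell under NRF, against 18.1% of all genes.

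The lists were counted again without DRF ZT20 replicates 3 and 4, where 359 genes were called higher and 625 lower over all genes. Calls were then 0 higher and 3 lower in fatty acid synthesis, 1 and 3 among insulin- and FOXO-responsive genes, 0 and 1 among glucocorticoid targets, 0 and 2 among the synthetases, 0 and 1 among heat shock genes, 0 and 1 among the chaperones and 3 and 0 in the NRF2 list. No member was called there in gluconeogenesis and glucose transport, the ATF4 list, or the amino acid and drug transporters. Counts, though not every gene behind them, were the same as with all libraries for mineral handling (3 and 1, where Atp2b1 lost its call and another member gained one), sodium and potassium transport (0 and 2), water and osmolytes (0 and 3) and the immediate early genes (1 and 1).

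**Figure D5:**
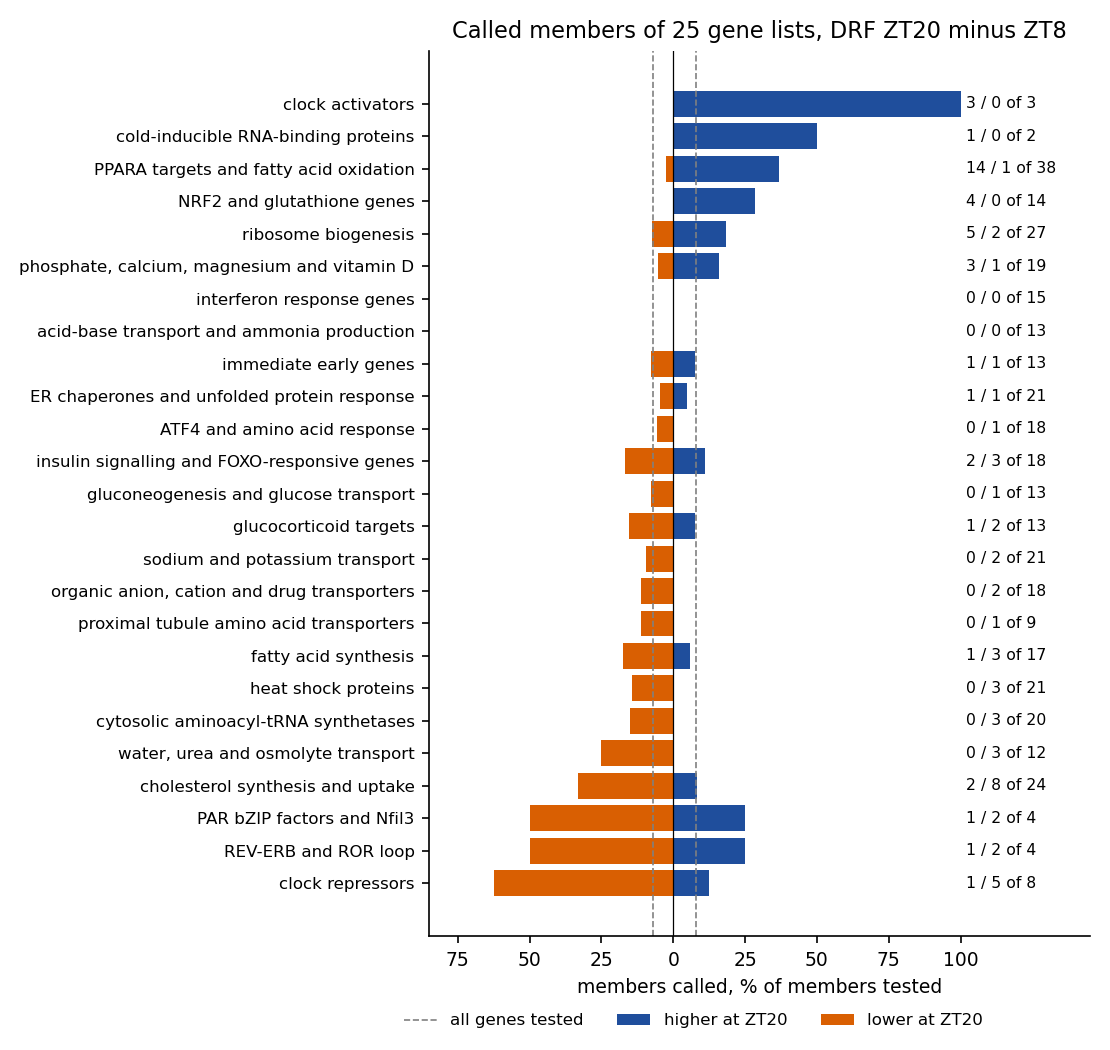
Share of tested members called higher (blue, to the right) and lower (orange, to the left) at DRF ZT20 than at DRF ZT8 for 25 gene lists, in percent of the members tested, with counts of higher and lower at the right and the shares over all genes tested as dashed lines (7.99% and 7.1%). The clock activators (3 of 3 higher), the 2 cold-inducible genes (1 higher) and PPARA targets (14 higher and 1 lower of 38) reach furthest to the higher side, and clock repressors (5 lower and 1 higher of 8) reach furthest to the lower side.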

How the data were processed

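RNA was read in pairs of 100 bases, and the submitters' processing notes list HISAT2, Bowtie2, RSEM, mm10 and GRCm38.p6, with no versions. The authors deposited 1 table of 17027 genes named TPM, whose values are treated here as a score, because they behaved as log2(CPM + 1), with CPM set by an effective library size, divided by gene length and scaled to sums of 999417 to 999711 in the 8 libraries. A single NRF ZT24 column had a number that no label carried and was kept in its group. From this score the reads were rebuilt with GENCODE M21 exon lengths or, where these failed, searched lengths, and 99.76% of values above 0 came out whole within 0.05 reads in 14865 genes. Other genes had reads in hundredths, as RSEM prints, and 104 genes with too many reads to judge and 13 without a length were left out. TPM was computed over 16910 genes. For genes with a searched length (Angptl4, Aqp4, Klf9, Scd2, Gm8126) the rebuilt reads depend on that length, and so do their levels and ratios.

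Genes with a mean of at least 1 TPM over all libraries (13570) were tested with limma 3.58.1 in R 4.3.3 on log2(TPM + 1), with a mean-variance trend, 14 groups and Benjamini-Hochberg adjustment. The fit was tested on simulated data. The 12 largest rises and falls were named among called genes with a mean of at least 10 TPM over the 8 libraries and no overlap between groups, with up to 4 called members of each list by size of change, every tested clock, PAR bZIP and cold-inducible gene, and 5 genes for each direction under NRF. Further genes of the lists were named after their values were seen, and some that the rule chose are not reported here. The members, lists and tests were chosen with earlier results of these data known. Mice carry separate labels, and p-values measure the spread between them. Alternatives were rescaling, pseudocount, filters, the deposited values, limma voom on the recovered reads, fewer groups, a replicate block, single libraries left out and a 1.5-fold minimum.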

Additional observations from a re-analysis of the deposited data

Results flagged for a closer look

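The effect of clock time differed between the feeding regimens for 7 of the 10 genes named as largest in both regimens. Of these, 5 had been chosen for calls in opposite directions, so their difference follows from that choice and is given with no test. On the log2 scale the DRF minus NRF difference of ZT20 minus ZT8 was 6.90 for Angptl4, 6.62 for Pdk4, 4.23 for Cyp24a1, 3.53 for Lgals4 and -3.24 for Nat8f6. Nr1d1 and Nr1d2 had been chosen for falls under both regimens, and by the limma test of the difference itself they fell less under DRF, with differences of 2.31 (adjusted p = 2.60e-06) and 1.13 (adjusted p = 5.32e-05).

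In 4 of the 174 groups of 4 libraries examined for the 87 named genes, a single library lay far from the other 3, and chance alone gives about 1 in 20. Per1 was at 21 TPM in DRF ZT20 replicate 4 against 9.78 to 11.6 TPM in the others. Npas2 was at 10.1 TPM in DRF ZT20 replicate 2 against 16.8 to 17.2 TPM, and Myc at 15.2 TPM in the same library against 20.5 to 21.5 TPM. Dnaja1 was at 88.3 TPM in DRF ZT8 replicate 3 against 95.2 to 96.5 TPM.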

How the results depend on the processing

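With all libraries, 2048 genes were called under DRF, and the fits that left out 1 DRF library gave 1358 to 2338, the lowest without DRF ZT20 replicate 3. Genes called under DRF and not under NRF numbered 1064, and 651 to 1320 with 1 library left out. Leaving out NRF ZT8 replicate 1, also chosen after the data were seen, changed no call of a named gene under DRF. The DRF difference holds no NRF library, so only the estimate of the spread could change those calls. Calls of single named genes under NRF or between regimens were not examined in that fit. Without DRF ZT20 replicates 3 and 4, likewise chosen after the data were seen, 984 genes were called under DRF, 257 of them in the opposite direction and called under NRF and 431 not called under NRF. That fit has 2 libraries in the group. With a minimum of 1.5-fold, 371 genes were called under DRF, 1073 under NRF, 1525 for the difference between regimens and 341 for the mean over regimens, and the classes held 80 genes in the same direction, 65 in the opposite direction and 226 not called under NRF. Every other alternative left these counts within 1.5 times. No call of a named gene under DRF changed direction in any alternative, and of 78 called named genes 59 were called in all 8 fits without 1 library. Without DRF ZT20 replicates 3 and 4, 23 named genes lost their call, and on the deposited values 9 did.

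Equal replicate numbers did not pair the mice: only 1 of 4 DRF pairs of equal number had a correlation of deviations over 0.1, and 5 of 16 libraries matched best with a library of their own number. With the replicate block, in a fit of the 4 groups at ZT8 and ZT20, 1631 genes were called under DRF, against 1853 in that fit without the block, and 12 named genes lost their call with it, against 11 without it.

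Genes near the limit of 1 TPM have few reads, and small changes there are hidden by the pseudocount. Light phase and meal change together within DRF, so their parts cannot be told apart from this pair alone. Each group is 4 mice at 1 time point of 1 day.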

Other observations

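Markers of cells outside the tubule gave further values. Podocyte markers summed to 343 to 408 TPM at DRF ZT8 and to 287 to 319 TPM at DRF ZT20, and blood markers to 1743 to 3228 TPM and 918 to 1737 TPM. The groups did not overlap in either sum, nor in the adipose and collecting duct sums. Among single genes the groups did not overlap for 10.4% (higher at ZT20) and 10% (lower) of all genes. None of the 4 podocyte and 3 blood genes tested was called, where 7.99% of all genes rose and 7.1% fell. Of 7 liver-type genes, 2 rose and none fell, against 7.99% and 7.1% of all genes. These were the fibrinogen genes Fga, from 37.4 to 63.9 TPM (0.74 ± 0.19, limma adjusted p = 0.00413), and Fgb, from 2.16 to 5.65 TPM (1.04 ± 0.31, adjusted p = 0.0153). Alb averaged 40.3 and 95.1 TPM and was not called (0.90 ± 0.62). Of the 5 immune markers tested only Ptprc (CD45) was called, falling by 0.43 from 4.30 to 2.93 TPM, where 7.1% of all genes fell.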
